A study of Mus musculus with 14 samples.

Results

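The JAK-STAT and SOCS signalling genes described here are Socs1, Socs2, Socs3, Cish, Stat3, Stat4, Stat6, Jak2 and Jak3. They were found by matching the RefSeq accession of each array probe to these symbols, which gave 14 probes for 9 genes, out of 41174 probes and 19096 named genes on the array. In the mouse genome build GRCm38.p6, RefSeq places Socs1 at chr16:10783808-10785536, Socs2 at chr10:95383903-95417321, Socs3 at chr11:117966079-117970336, Cish at chr9:107296659-107302784, Stat3 at chr11:100886806-100939594, Stat4 at chr1:51987106-52107189, Stat6 at chr10:127642955-127660987, Jak2 at chr19:29251803-29313095 and Jak3 at chr8:71676383-71690577. All 14 probes passed the filter on low signal, as did 29523 probes in all, among them those of 15540 named genes.

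Cytokines of the interleukin, interferon and growth hormone families bind receptors that carry Janus kinases (JAKs). The kinases phosphorylate STAT proteins, which enter the nucleus and act as transcription factors, and several SOCS genes are themselves STAT targets whose proteins bind receptors and JAKs and shut the signal off. In the colon, STAT3 is known as the mediator of IL-6 and IL-22 signals in epithelial repair, whereas STAT4 and STAT6 are known for the IL-12 and IL-4 or IL-13 responses of immune cells.

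Total RNA of whole colon from female C57BL/6 mice aged 4 to 6 months on chow was hybridised to 14 Agilent 1-colour arrays, 1 sample per array. Flox mice are GR fl/fl and lack Cre (GR, the glucocorticoid receptor, is the product of Nr3c1), and GR iKO mice carry the same floxed alleles with Villin-cre, a transgene that is active in the intestinal epithelium and leaves GR intact in the other cells of the colon. Mice of both genotypes drank regular water (4 Flox and 4 GR iKO arrays) or water with 2.5% dextran sulfate sodium (DSS), a polymer toxic to the epithelium that brings on colitis, over 7 days (3 Flox and 3 GR iKO arrays). A level is the log2 signal of a probe minus the 75th percentile of its array, so a level of 0 is the signal of a rather bright probe, and a difference of 1 is a 2-fold difference. The labels do not say whether samples of a group came from separate mice, so p values measure the spread between these samples, pooled over all 4 groups. Since whole tissue was measured, fewer cells of a type and less RNA per cell cannot be told apart.

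The 75th percentile of the signal lay between 262 and 1003 intensity units over the 14 arrays, and 62.6% to 71.3% of probes were well above background. Spread between replicates was larger on DSS, where the median SD of a probe was 0.26 in Flox and 0.34 in GR iKO against 0.18 and 0.17 on water. Nr3c1 (A_52_P138090) had 57.3% of the Flox signal in GR iKO colons on water (adjusted p 0.0968) and 56.1% on DSS (adjusted p 0.00718), and was lower in GR iKO on all 4 slides for water and on both that allowed it for DSS. Whether its sequence falls in the deleted part of Nr3c1 was not determined. Each of 9 epithelial markers, led by Krt8 and Lgals4, and 6 smooth muscle markers was well above background on at least 1 water array.

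Sequence upstream of the transcription start was available from RefSeq (GRCm38.p6) for 8 of the 9 genes, with a pair of windows for Stat4 and no entry for Socs2. Both strands of each window of 250 bases were searched for TTCNNNGAA, the palindrome bound by most STATs, for TTCNNNNGAA, the spacing favoured by STAT6, and for GAAANNGAAA, a core of interferon response elements that was added after the Socs1 sequence had been seen. Over the 32851 windows of all genes, 7.02%, 5.85% and 2.98% held at least 1 match, respectively. Socs3 held 1 TTCNNNGAA match, Socs1 held a pair of overlapping GAAANNGAAA matches and 1 Stat4 window held 1 GAAANNGAAA match, whereas TTCNNNNGAA matched in none of the member windows. Capitals below mark the matches, and sequences run 5′ to 3′ on the strand of the gene. Socs1 (chr16:10785537-10785786, minus strand) and Cish (chr9:107296409-107296658, plus strand) are shown as whole windows, Socs1 for its overlapping matches and Cish because its level passed the test in no comparison. Of all windows, 0.180% held 2 or more GAAANNGAAA matches. This share is no test of Socs1, since the motif was added after its sequence had been seen. Socs3 (chr11:117969502-117969530, minus strand) and Stat4 (chr1:52008133-52008162, plus strand) are shown as the match with 10 bases on either side, since these windows lie inside the annotated span of their genes. The matches begin 154 bases before the start for Socs3, 83 and 77 for Socs1 and 97 for Stat4.
Socs1: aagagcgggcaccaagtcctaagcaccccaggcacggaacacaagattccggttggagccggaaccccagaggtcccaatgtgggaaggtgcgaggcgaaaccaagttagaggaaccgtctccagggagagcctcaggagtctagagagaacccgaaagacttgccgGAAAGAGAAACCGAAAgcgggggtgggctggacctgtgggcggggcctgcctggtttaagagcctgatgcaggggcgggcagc
Socs3: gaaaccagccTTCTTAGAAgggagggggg
Stat4: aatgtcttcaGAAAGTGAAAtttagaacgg
Cish: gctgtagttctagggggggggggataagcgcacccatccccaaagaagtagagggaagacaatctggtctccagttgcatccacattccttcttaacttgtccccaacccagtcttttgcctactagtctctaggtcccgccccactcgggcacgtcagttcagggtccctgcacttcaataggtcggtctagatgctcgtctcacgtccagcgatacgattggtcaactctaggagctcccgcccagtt
A match describes these letters only, and a window without one says only that the letters are not in it.

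DSS raised Socs3, Socs1, Stat3 and Jak3 and lowered Socs2 in both genotypes, and raised Stat4, Jak2 and the main Stat6 probe in GR iKO colons. The brightest probe stood for each gene. Of the 9 genes, 5 were called in Flox, where 52.6% of all probes were called (24.4% higher, 28.2% lower). In GR iKO 8 were called, where 44.5% of all probes were called (22% higher, 22.5% lower). Over genes with their probes averaged, 55.5% were called in Flox and 48.2% in GR iKO. Another Stat6 probe was called in both genotypes. The median log2 change over the 9 genes was 0.43 in Flox and 1.11 in GR iKO, against −0.09 and −0.02 over all probes. These directions are relative to the other probes of the array. Scaled to spike-in transcripts instead, the median of all probes moved to −2.44 in Flox and −0.98 in GR iKO, and the sign turned for Stat3 and Jak3 in Flox and for Jak2 and Stat6 in GR iKO. Each gene's distance from that median cannot change, since either scaling shifts all probes of an array by the same amount (Stat3 2.35 in Flox on either scale). Spike-in scaling also ended calls without a turn of sign. These were Socs1 in Flox (0.55, adjusted p 0.327) and Jak3 (0.16, adjusted p 0.731) and Stat4 (0.42, adjusted p 0.454) in GR iKO.

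**Figure D1:**
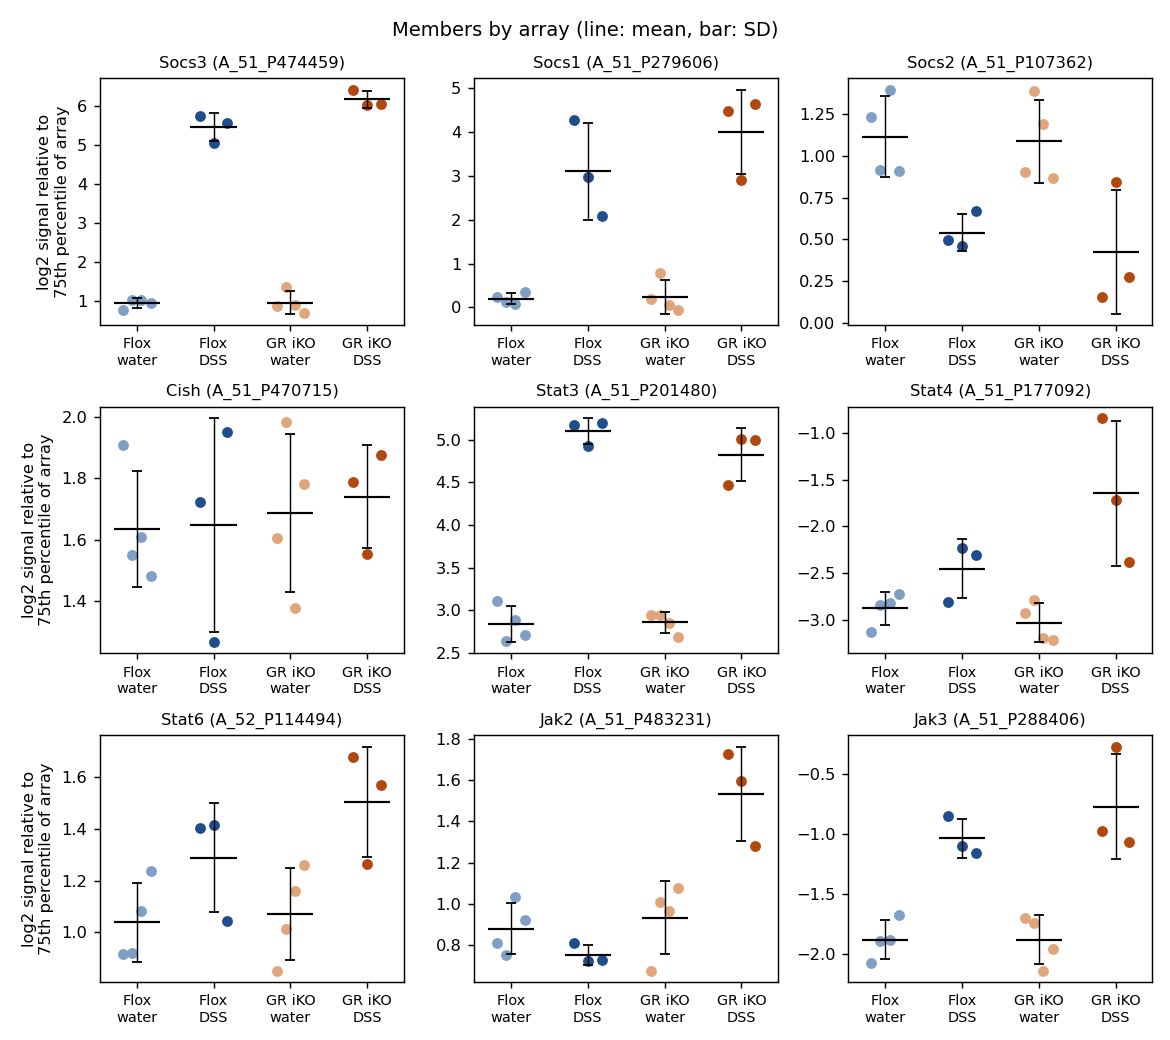
Level of each gene on each of the 14 arrays, in log2 signal minus the array's 75th percentile, with 1 panel per gene and its own axis. Points are arrays, horizontal lines group means and bars SD (n = 4 on water, n = 3 on DSS); Socs3 lies between 5.06 and 6.43 on DSS and between 0.70 and 1.36 on water, whereas the Cish groups overlap throughout.

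**Figure D2:**
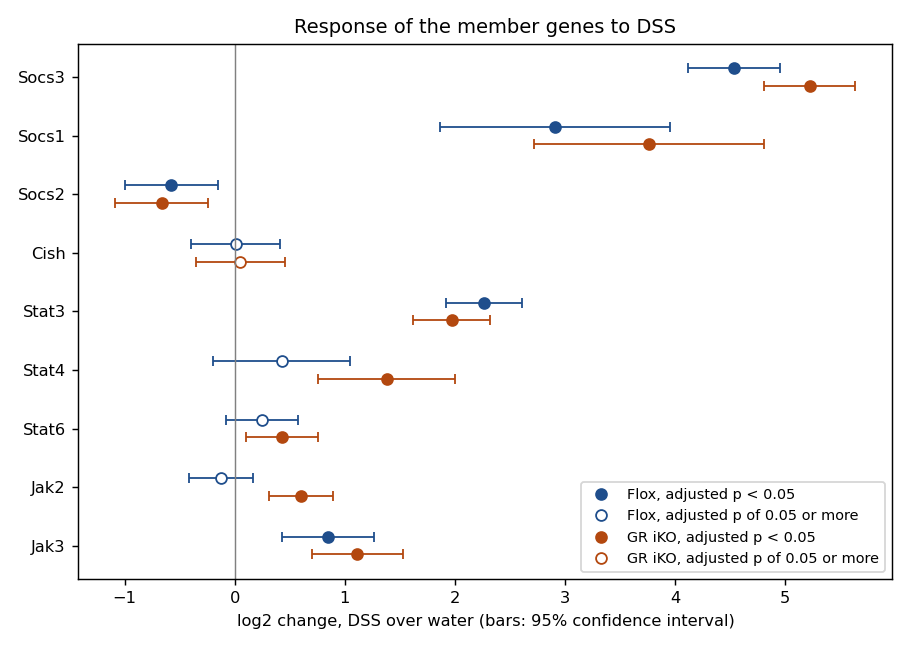
Log2 change on DSS over water in Flox and GR iKO colons with the 95% confidence interval of limma, filled where the adjusted p was under 0.05. Socs3 changed most in both genotypes (4.53 and 5.22) and Cish least (0.01 and 0.05); scaled to spike-in transcripts, the sign turned for Stat3, Jak3, Stat4, Stat6 and Cish in Flox and for Jak2, Stat6 and Cish in GR iKO.

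Among the SOCS inhibitors, Socs3, the STAT3-induced brake on gp130 receptors, rose most. Its level (A_51_P474459) was 0.75, 1.03, 1.02 and 0.94 on the 4 Flox water arrays and 5.76, 5.06 and 5.58 on the 3 Flox DSS arrays. In GR iKO colons it was 0.87, 1.36, 0.91 and 0.70 on water and 6.43, 6.05 and 6.06 on DSS. Water and DSS arrays lay far apart in both genotypes, and every GR iKO DSS array was above every Flox DSS array. The rise was 23.1-fold in Flox (log2 change 4.53, SE 0.19, adjusted p 8.57e-08) and 37.3-fold in GR iKO (5.22, SE 0.19, adjusted p 2.42e-08). Within slides the change was 4.03 to 5.01 in Flox and 5.14 to 5.56 in GR iKO.

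Socs1, an interferon-induced inhibitor of JAK catalytic activity, rose in both genotypes but by very different amounts from array to array. Its level (A_51_P279606) was 0.24, 0.12, 0.08 and 0.35 on Flox water and 4.27, 2.97 and 2.08 on Flox DSS arrays. In GR iKO it was 0.20, 0.79, 0.04 and −0.07 on water and 4.47, 2.90 and 4.64 on DSS. Both DSS groups were clear of the water arrays and overlapped each other, with an SD of 1.10 in Flox and 0.96 in GR iKO. The rise was 7.51-fold in Flox (log2 change 2.91, SE 0.48, adjusted p 0.000337) and 13.6-fold in GR iKO (3.76, SE 0.48, adjusted p 8.39e-05).

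Socs2, which restrains growth hormone signalling through STAT5, was the only one of the 9 genes that fell. Its level (A_51_P107362) was 1.24, 0.91, 1.40 and 0.91 on Flox water and 0.49, 0.46 and 0.67 on Flox DSS arrays. In GR iKO colons it was 0.90, 1.39, 1.19 and 0.87 on water and 0.15, 0.85 and 0.28 on DSS. The DSS arrays were below the water arrays of the same genotype, in GR iKO by a gap of only 0.02. The log2 change was −0.57 in Flox (SE 0.19, adjusted p 0.025) and −0.66 in GR iKO (SE 0.19, adjusted p 0.0146). The Flox call was lost when Flox water replicate 1 or 3 or Flox DSS replicate 1 or 2 was left out (changes of −0.53, −0.48, −0.55 and −0.53), and the GR iKO call when GR iKO DSS replicate 1 or 4 was (−0.53 and −0.59).

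Cish, a STAT5-induced member of the family, passed the test in no comparison. Its level (A_51_P470715) was 1.91, 1.55, 1.61 and 1.48 on Flox water, 1.72, 1.27 and 1.95 on Flox DSS, 1.61, 1.98, 1.38 and 1.78 on GR iKO water and 1.79, 1.55 and 1.88 on GR iKO DSS arrays. The 4 groups overlapped. The log2 change on DSS was 0.01 in Flox (95% confidence interval −0.39 to 0.42, adjusted p 0.965) and 0.05 in GR iKO (−0.35 to 0.46, adjusted p 0.841).

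Of the STATs, Stat3, the transcription factor of IL-6, IL-11 and IL-22 signals, rose in both genotypes. Its level (A_51_P201480, printed 10 times per array, with an SD over these spots of 0.03 to 0.08) was 3.11, 2.64, 2.88 and 2.71 on Flox water and 5.18, 4.93 and 5.20 on Flox DSS arrays. In GR iKO it was 2.95, 2.94, 2.85 and 2.68 on water and 4.47, 5.01 and 4.9988 on DSS. Water and DSS arrays did not overlap, and the DSS arrays of the genotypes did. The rise was 4.81-fold in Flox (log2 change 2.27, SE 0.16, adjusted p 1.11e-06) and 3.92-fold in GR iKO (1.97, SE 0.16, adjusted p 4.26e-06), and the difference between these responses was −0.29 (95% confidence interval −0.79 to 0.20, adjusted p 0.52).

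Stat4, which carries the IL-12 signal in T and NK cells, rose in GR iKO colons. Its level (A_51_P177092) was −3.13, −2.84, −2.82 and −2.73 on Flox water and −2.81, −2.24 and −2.31 on Flox DSS arrays. In GR iKO colons it was −2.93, −2.79, −3.19 and −3.21 on water and −0.84, −1.72 and −2.38 on DSS. The Flox groups overlapped, whereas in GR iKO all DSS arrays exceeded all water arrays, with a wide spread (SD 0.77). The log2 change was 0.43 in Flox (SE 0.29, adjusted p 0.232) and 1.38 in GR iKO (SE 0.29, adjusted p 0.00214), and normexp background correction gave a called change in Flox (0.56, adjusted p 0.0358). Beside this, the mean level of 8 T cell markers relative to water ran from −1.09 to −0.43 on Flox DSS and from −0.30 to 0.37 on GR iKO DSS arrays. These ranges lie partly at background, since Cd28 was well above it on 0 of 3 DSS arrays in each genotype. Cd4 and Cd8a were so on 1 of 3 Flox and 3 of 3 GR iKO DSS arrays. The mean level of the 3 of 6 NK cell markers that passed the filter ran from 0.64 to 1.63 on Flox DSS and from 1.58 to 2.02 on GR iKO DSS arrays. Their part in the Stat4 values was not tested.

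Stat6, the transcription factor of IL-4 and IL-13, was measured by 3 probes that differed in their calls. The brightest (A_52_P114494) was at 0.92, 0.92, 1.08 and 1.24 on Flox water, 1.40, 1.41 and 1.05 on Flox DSS, 0.85, 1.01, 1.16 and 1.26 on GR iKO water and 1.68, 1.27 and 1.57 on GR iKO DSS arrays. Flox groups overlapped and GR iKO groups were separated by less than 0.01. Its log2 change was 0.25 in Flox (SE 0.15, adjusted p 0.18) and 0.43 in GR iKO (SE 0.15, adjusted p 0.0331), and the GR iKO call was made in 16 of 27 alternative settings. It was lost without GR iKO water replicate 1 (0.36) or 2 (0.41) or GR iKO DSS replicate 1 (0.34) or 4 (0.40). In Flox, a rise of Stat6 was called with array quality weights (0.32, adjusted p 0.0298) and with its probes averaged (0.33, adjusted p 0.0445). A_51_P452382, printed 10 times per array, was called in both genotypes, with changes of 0.60 (adjusted p 0.0025) and 0.56 (adjusted p 0.00454). The third, A_52_P132761, gave 0.14 (adjusted p 0.452) and 0.46 (adjusted p 0.0216), was well above background on 2 of 3 Flox DSS arrays, and lost its call without GR iKO water replicate 1 (0.41) or GR iKO DSS replicate 1 (0.33).

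Of the kinases, Jak2, which serves the receptors of interferon gamma, IL-12, growth hormone and the IL-6 family, rose in GR iKO colons and not detectably in Flox. Its level (A_51_P483231) was 0.81, 0.75, 1.03 and 0.92 on Flox water and 0.81, 0.73 and 0.73 on Flox DSS arrays. In GR iKO it was 0.68, 1.01, 0.96 and 1.08 on water and 1.73, 1.60 and 1.28 on DSS. The GR iKO DSS arrays were above all 11 others. The log2 change was −0.13 in Flox (95% confidence interval −0.42 to 0.16, adjusted p 0.45) and 0.60 in GR iKO (SE 0.13, adjusted p 0.00306), a 1.52-fold rise. Within slides the GR iKO change was 0.20 to 1.05. For a second probe (A_52_P309376) the change in Flox was −0.38 (adjusted p 0.125) and that in GR iKO 0.39 (adjusted p 0.123), neither called.

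Jak3, the kinase of the common gamma chain in lymphocytes and other blood cells, rose in both genotypes with each of 3 probes. The brightest (A_51_P288406) was at −2.08, −1.89, −1.88 and −1.68 on Flox water and −0.85, −1.10 and −1.16 on Flox DSS arrays. In GR iKO colons it was at −1.70, −1.74, −2.14 and −1.96 on water and −0.97, −0.27 and −1.07 on DSS. Water and DSS arrays did not overlap for any of the probes. The rise was 1.80-fold in Flox (log2 change 0.85, SE 0.19, adjusted p 0.00269) and 2.17-fold in GR iKO (1.11, SE 0.19, adjusted p 0.000608). The other probes changed by 1.01 and 0.99 in Flox and by 1.05 and 1.46 in GR iKO (A_51_P355360 and A_52_P512847), all called.

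Without DSS, the genotype made no detectable difference to any of the 9 genes. Differences of GR iKO from Flox on water ran from −0.15 (Stat4) to 0.05 (Jak2), the groups overlapped for each gene, and 0 of 9 genes were called by limma, with 0 at an unadjusted p under 0.05 and 0.00339% of all probes called. The 95% confidence intervals of these differences lay between −0.93 and 1.01, with the widest for Socs1. These intervals and p values use a spread pooled with the more variable DSS arrays. Socs1 had an SD of 0.12 and 0.38 on water but 1.10 and 0.96 on DSS, so its interval is wider than its water arrays alone imply. No alternative setting called any of the 9 genes on water, the fit on the water arrays alone included.

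On DSS, Jak2 and Socs3 were higher in GR iKO than in Flox colons. These 2 of 9 genes were called where 13.2% of all probes were (6.44% higher, 6.78% lower) and 16.3% of genes with their probes averaged. They were the ones whose groups did not overlap on the brightest probe of each gene. Of all probes with a value on every DSS array, 22.8% had groups that did not overlap. Jak2 was 1.72-fold higher (log2 difference 0.78, SE 0.14, adjusted p 0.00916), by 0.79 and 0.55 on the 2 slides that carried DSS arrays of both genotypes. The second Jak2 probe gave 0.80 (SE 0.21, adjusted p 0.0287), and was well above background on 2 of 3 Flox DSS arrays. Its difference was −0.04 under normexp background correction and 0.69 (adjusted p 0.108) without Flox DSS replicate 2. Its call was also lost with slide as a block (adjusted p 0.0511), with replicate number as a block (0.086), in a fit on the DSS arrays alone (0.254), with weights by treatment (0.0867) and with array quality weights (0.0843). Socs3 was 1.64-fold higher (0.71, SE 0.21, adjusted p 0.0405), by 0.28 and 0.49 within slides.

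The pair differed in how far the call rested on the setting. For Jak2 the difference ranged from 0.68 to 0.91 over 26 settings without the spike-in scaling, and was called in 25 of them. These settings are not independent, since 14 of them each leave out 1 array and most pool the spread of water and DSS arrays. The exception was a fit on the 6 DSS arrays alone (adjusted p 0.226), which called 0% of all probes. Residual variance was larger on DSS than on water for 82.8% of probes, by a median ratio of 3.12. For Socs3 the range was 0.51 to 0.86, and 11 of 26 settings called it. Its call was lost in that fit (adjusted p 0.255) and with slide as a block (0.69, adjusted p 0.112). It was also lost without Flox DSS replicate 2, the lowest of the DSS arrays (0.51, adjusted p 0.153), without GR iKO DSS replicate 1, the highest (0.59, adjusted p 0.119), and without GR iKO DSS replicate 4 (0.77, adjusted p 0.0557). Leaving out Flox water replicate 1, 2, 3 or 4 or GR iKO water replicate 1 or 3 left the difference at 0.71 with an adjusted p of 0.0519 to 0.0581.

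**Figure D3:**
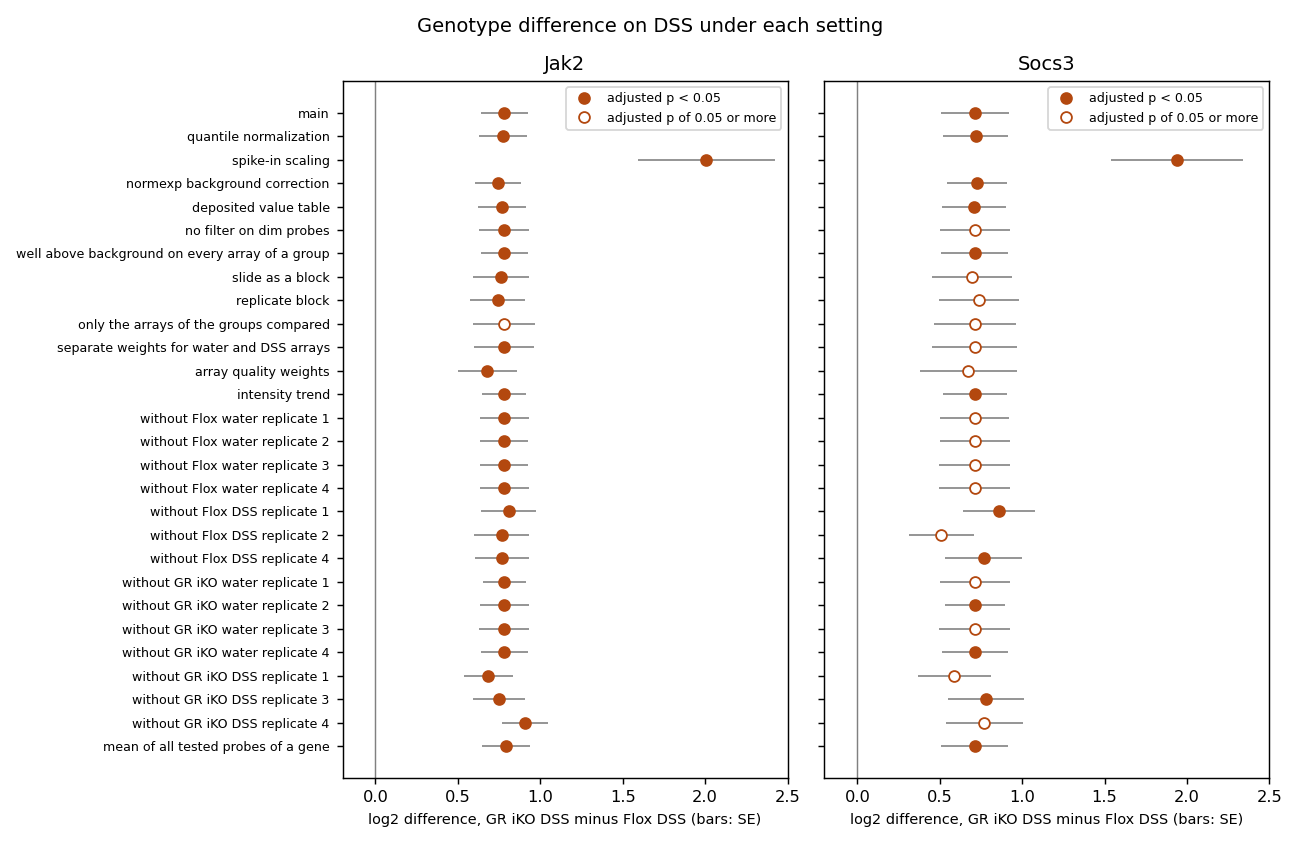
Log2 difference of GR iKO from Flox on DSS for Jak2 (A_51_P483231) and Socs3 (A_51_P474459) in the main setting and in 27 others, with SE bars, filled where the adjusted p was under 0.05. Jak2 is filled in 26 of the 27 other settings and Socs3 in 12, both with spike-in scaling, which moves the median of all probes to 1.25.

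The other 7 genes did not pass the test between genotypes on DSS. Socs1 was at 0.90 (95% confidence interval −0.22 to 2.02, adjusted p 0.271) and went opposite ways within the 2 slides, by −1.37 and 2.56. Stat4 was at 0.80 (0.13 to 1.47, adjusted p 0.103), by 1.09 and −0.07 within slides, and was called without GR iKO DSS replicate 4 (1.17, adjusted p 0.02). Stat3 was at −0.28 (−0.65 to 0.10, adjusted p 0.312) and lower in GR iKO within both slides, by 0.17 and 0.20. Jak3, Stat6, Cish and Socs2 were at 0.27, 0.22, 0.09 and −0.12 on their brightest probes (adjusted p 0.418, 0.399, 0.801 and 0.754). The other Jak3 probes disagreed, with 0.004 for A_51_P355360 (adjusted p 0.99) and 0.36 for A_52_P512847 (adjusted p 0.101). On A_52_P512847 every GR iKO DSS array was above every Flox DSS array. The other Stat6 probes gave −0.03 (A_51_P452382, adjusted p 0.928) and 0.15 (A_52_P132761, adjusted p 0.56).

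Cell markers also moved between the genotypes on DSS, where 6.44% of all probes were called higher and 6.78% lower in GR iKO. All 6 smooth muscle markers, led by Tagln and Cnn1, were called lower in GR iKO, with a mean level relative to water of 0.93 to 1.73 on Flox DSS and −0.73 to 0.53 on GR iKO DSS arrays. Neutrophil markers, led by S100a9 and S100a8, were higher on every GR iKO DSS array (6.17 to 8.57) than on Flox DSS arrays (4.55 to 5.51), with 3 of 7 called. These 2 ranges are over water means that lie partly at background, since Cxcr2 and Mmp8 were well above background on 0 water arrays, Ngp on 1, S100a8 on 3 and Retnlg on 5 of 8, and Ngp also on 0 Flox DSS arrays. Epithelial markers ran from −0.63 to −0.07 and from −0.31 to 0.32, macrophage markers from 0.49 to 1.43 and from 0.97 to 1.59, and B and plasma cell markers from −4.02 to −0.88 and from −3.02 to −0.03. The part of these shifts in the Jak2 and Socs3 differences was not tested.

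The difference between the DSS responses of the genotypes was tested as an interaction. Of the 9 genes, 0 were called by limma, where 0.112% of all probes were (0.0881% higher, 0.0237% lower). Among the 29523 tested probes, 5672 had an unadjusted p under 0.05, and 3 of the 9 genes did on their brightest probe. These were Jak2 (0.73, SE 0.19, adjusted p 0.0841), Socs3 (0.69, SE 0.27, adjusted p 0.194) and Stat4 (0.95, SE 0.41, adjusted p 0.226). Each had a larger response in GR iKO. So did A_52_P309376 of Jak2 (0.77, adjusted p 0.164) and A_52_P512847 of Jak3 (0.47, adjusted p 0.187), which also had an unadjusted p under 0.05. The brightest Jak2 probe was called without GR iKO DSS replicate 4 (0.85, adjusted p 0.049). A difference between the DSS responses of the genotypes was thus not shown for Stat4 or Jak2, although DSS was called in GR iKO alone.

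The genes whose levels were most like those of a member over the 14 arrays, among 15463 genes, are given as a description, since water and DSS arrays form separate groups that any responding gene follows. Socs1 was most like Iigp1 (r = 0.996), Ifi47 (0.996) and Igtp (0.993), which encode interferon-inducible GTPases. Deviations from the group means lack the mean DSS effect but keep differences in the strength of the response between DSS arrays. Those of Socs1 were again most like those of Iigp1 (0.975), followed by Gbp6 (0.965) and Ifi47 (0.962). Socs1 varied more between DSS arrays (SD 1.10 for Flox, 0.96 for GR iKO) than between water arrays (SD 0.12 and 0.38). DSS arrays therefore weighed most in this likeness. Iigp1 was lowest on the same DSS array as Socs1 in each genotype, with levels over the water mean from 2.97 to 6.39 in Flox and from 4.18 to 6.601 in GR iKO.

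Socs3 was most like Il6 (r = 0.998), the cytokine that signals through gp130, Ier3 (0.996), an immediate early gene, and Osmr (0.992), the oncostatin M receptor. On water, Il6 was not well above background on any of the arrays. On deviations from the group means none of these was among the nearest, which were Ly6c1 (0.895), Rph3a (0.869) and Lin54 (0.831). Stat3 was most like Hspa2 (0.993), Camkk2 (0.991) and Reg3b (0.987), an antimicrobial lectin and known STAT3 target. Stat4 was most like Icos (0.966), a T cell costimulator, and Coro1a (0.960) and Nckap1l (0.957), which are leukocyte cytoskeleton genes. Jak2 was most like Jaml (0.927), Saa3 (0.922) and Tbl1xr1 (0.920).

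**Figure D4:**
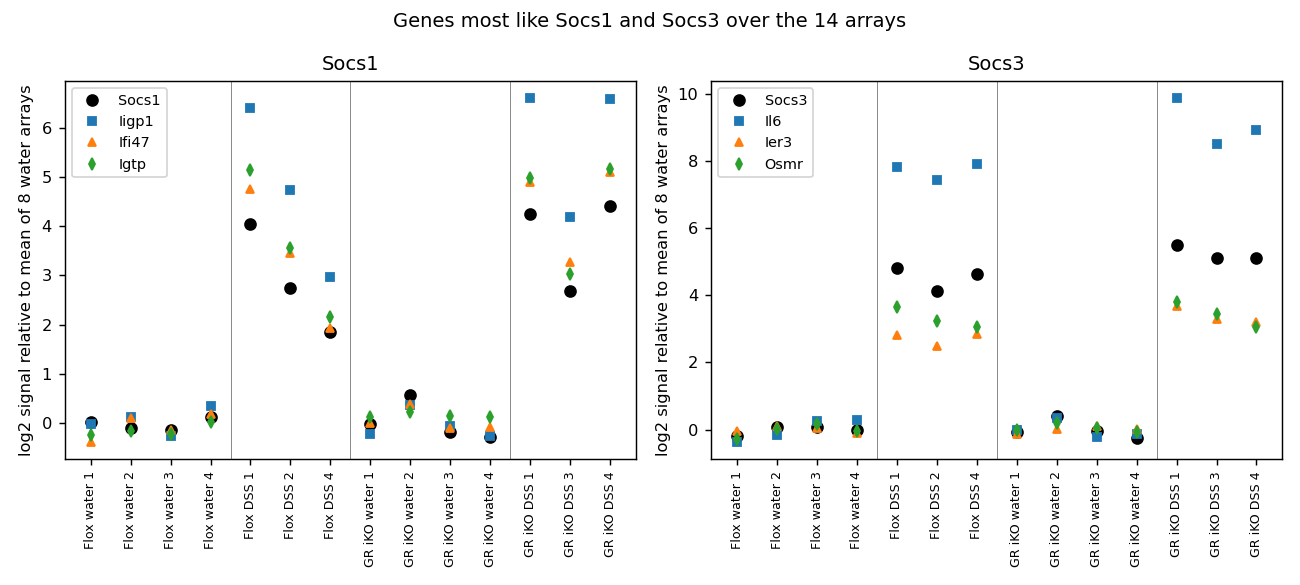
Levels of Socs1 (left) and Socs3 (right) with the 3 genes most like each, on each of the 14 arrays, in log2 relative to the mean of the 8 water arrays. Iigp1, Ifi47 and Igtp share the low value of Socs1 on Flox DSS replicate 4 and GR iKO DSS replicate 3, while Il6, Ier3 and Osmr rise with Socs3 on all 6 DSS arrays, Il6 from values not well above background.

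The rest of the pathway was read from lists of 122 further genes, chosen with earlier results of these data known, of which 111 were tested. In Flox 60 rose and 8 fell on DSS, where 24.4% of all probes rose and 28.2% fell. In GR iKO 77 rose and 11 fell, where 22% of all probes rose and 22.5% fell. Csf2, Csf3, Fgg, Il18rap, Il2ra and Il6 were well above background on no water array and passed the filter through DSS arrays alone. A fall could not have been found for them, which favours rises in these counts and in those of their lists below. The median log2 changes of the pathway genes were 0.80 and 1.07, against −0.09 and −0.02 over all probes. Between genotypes on DSS, 27 were higher and 7 lower in GR iKO. That is 30.6% called, against 13.2% of all probes and 16.3% of genes with their probes averaged. The count of pathway genes called was 15 with slide as a block (5.46% of all probes) and 0 in a fit on the DSS arrays alone (0%). It was 11 without Flox DSS replicate 2 (3.65% of all probes) and 18 without GR iKO DSS replicate 1 (7.35%). On water 0 were called by limma (1 at an unadjusted p under 0.05, as were 278 of the 29523 tested probes). For the interaction 1, Il11, was called, where 0.112% of all probes were. An unadjusted p under 0.05 was found there for 39 pathway genes and for 5672 of the 29523 tested probes.

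Of 21 ligands listed, 14 passed the filter on low signal, and Il6, Csf2 and Csf3 did so through DSS arrays alone. Of the 14 ligands tested, 8 rose and 1 fell in Flox and 10 rose and 2 fell in GR iKO. The shares of all probes were 24.4% higher and 28.2% lower in Flox and 22% higher and 22.5% lower in GR iKO. Il6 was at −0.16 ± 0.25 (SD, n = 3) on Flox DSS and 1.22 ± 0.70 (SD, n = 3) on GR iKO DSS arrays, at least 57.8-fold and 134-fold higher than on water, where it was not well above background and a bound stands in for its level. Ifng, the macrophage-activating interferon, was at least 40.0-fold higher in Flox (adjusted p 5.1e-05). It also rose in GR iKO, by a log2 change of 7.73 in limma (adjusted p 1.48e-05), with 1 of 4 water arrays well above background. Il22, a lymphocyte cytokine that acts on epithelium, was at least 51.2-fold higher in GR iKO (adjusted p 0.000301). It also rose in Flox, by a log2 change of 3.87 in limma (adjusted p 0.0193), with 1 of 4 water arrays well above background. Csf3, the growth factor of neutrophils, was 8.45-fold higher in GR iKO than in Flox on DSS (adjusted p 0.00718) and Il11, a gp130 cytokine, 5.09-fold (adjusted p 0.00355). Il11 went from −3.81 ± 0.26 to −0.61 ± 0.21 in Flox and from −3.90 ± 0.15 to 1.74 ± 0.46 in GR iKO (SD, n = 4 on water and n = 3 on DSS), an interaction of 2.43 (SE 0.29, adjusted p 0.033) that was called in 14 of 26 other settings. Its call was lost without Flox water replicate 1, 3 or 4, Flox DSS replicate 2 or GR iKO water replicate 1, 2, 3 or 4, with differences of 2.35 to 2.47.

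Of 33 receptor genes in 4 lists, 17 rose and 2 fell in Flox and 24 rose and 2 fell in GR iKO, where 24.4% of all probes rose and 28.2% fell in Flox and 22% rose and 22.5% fell in GR iKO. Of 8 gp130-type receptors, 4 rose and 1 fell in each genotype, with Osmr at 3.36 in Flox and 3.38 in GR iKO (log2 change, adjusted p 4.53e-07 and 4.82e-07) and Csf3r, the receptor of Csf3, at 3.01 and 4.41 (on water, well above background on 2 of 4 arrays in Flox and 3 of 4 in GR iKO). Of 8 common gamma chain, IL-4 and IL-13 receptor genes, 3 rose in Flox and 7 in GR iKO, with Il4ra at 2.08 and 2.62 (adjusted p 5.28e-06 and 2.27e-06). Il2ra, the alpha chain of the IL-2 receptor, was at least 3.33-fold higher in Flox and 3.25-fold in GR iKO than on water, where it was not well above background (2 of 3 Flox DSS arrays measured it). Of 9 interferon, IL-10, IL-12 and IL-22 receptor genes, 5 rose in Flox and 8 in GR iKO, with Il12rb1, the shared chain of the IL-12 and IL-23 receptors, at 1.38 and 2.27 (adjusted p 0.00386 and 0.000194). Of 8 receptor genes of the growth hormone, prolactin, erythropoietin and beta common group, 5 rose and 1 fell in each genotype, with Csf2rb, the beta common chain, at 1.62 and 3.01 (adjusted p 0.000188 and 4.44e-06). Scaled to spike-in transcripts, the Flox changes of Il4ra, Il12rb1 and Csf2rb were −0.27, −0.98 and −0.74. Between genotypes on DSS, 9 of the 33 were higher and 3 lower in GR iKO, where 6.44% of all probes were higher and 6.78% lower. Csf3r (1.53, adjusted p 0.0289), Il7r, the IL-7 receptor (1.43, adjusted p 0.0452), and Csf2rb (1.40, adjusted p 0.01) had the largest differences of the 9. Il11ra1 (−0.83, adjusted p 0.00504), Ghr, the growth hormone receptor (−1.07, adjusted p 0.0266), and Prlr, the prolactin receptor (−1.04, adjusted p 0.0472), were the 3 lower, and Il11ra1 and Ghr were at 0.39 and 0.16 when scaled to spike-in transcripts.

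Among the other signalling genes, of 6 further JAKs and STATs, 3 rose and 1 fell in Flox and 4 rose and 1 fell in GR iKO. For this and the PIAS counts below, 24.4% of all probes rose and 28.2% fell in Flox. In GR iKO 22% of all probes rose and 22.5% fell. Stat2, a transcription factor of type I interferon signalling, changed by 1.97 in Flox (SE 0.28, adjusted p 0.0001) and 2.01 in GR iKO (SE 0.28, adjusted p 0.000131), and was at −0.39 in Flox when scaled to spike-in transcripts. Of 4 further SOCS genes, Socs5 rose by 1.19 in Flox and 0.53 in GR iKO (−1.17 and −0.42 when scaled to spike-in transcripts), and Socs4 fell by 0.61 in Flox, a change that normexp correction moved to 0.03. On DSS, Socs4 (0.76, adjusted p 0.0291) and Socs6 (0.60, adjusted p 0.0408) were higher and Socs5 (−0.56, adjusted p 0.023) was lower in GR iKO, relative to the other probes. Of 10 PIAS, phosphatase and Lnk genes, 3 rose and 3 fell in Flox and 4 rose and 3 fell in GR iKO. Ptpn1, a phosphatase that acts on JAK2, was at 1.36 and 1.89 (in Flox −0.997 when scaled to spike-in transcripts), and Ptprc, the leukocyte phosphatase CD45, was higher in GR iKO on DSS (0.95, adjusted p 0.0188).

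Genes known as targets of the pathway were read from 4 lists, and which STAT acts on them in these colons was not tested. On DSS, 24.4% of all probes rose and 28.2% fell in Flox, and 22% rose and 22.5% fell in GR iKO. Of 16 STAT3 targets, 11 rose in Flox and 12 in GR iKO, and 0 fell. Reg3b and Reg3g, antimicrobial lectins of the epithelium, rose by 11.76 and 10.01 in Flox and by 10.42 and 9.07 in GR iKO. Between genotypes on DSS, Hif1a, a transcription factor of the hypoxia response (1.10, adjusted p 0.0286), and Vegfa, an angiogenic growth factor (0.95, adjusted p 0.0157), were higher in GR iKO. Of 13 genes induced by interferon gamma or IL-12, 10 rose in Flox and 12 in GR iKO, led by the T cell chemoattractants Cxcl9 (4.28 and 6.62) and Cxcl10 (4.14 and 6.39), which were also higher in GR iKO than in Flox on DSS (2.90, adjusted p 0.0111, and 2.11, adjusted p 0.0366). Of 10 STAT6 targets, 5 rose in each genotype, among them Chil3, a chitinase-like protein of myeloid cells (5.67 and 8.73), while Retnla fell by 3.96 in GR iKO. Of 5 STAT5 targets, 2 rose in Flox, and 3 rose and 2 fell in GR iKO, with Bcl6 at 2.16 and 1.92 (in Flox −0.20 when scaled to spike-in transcripts) and Igf1 at 2.60 and 1.40.

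**Figure D5:**
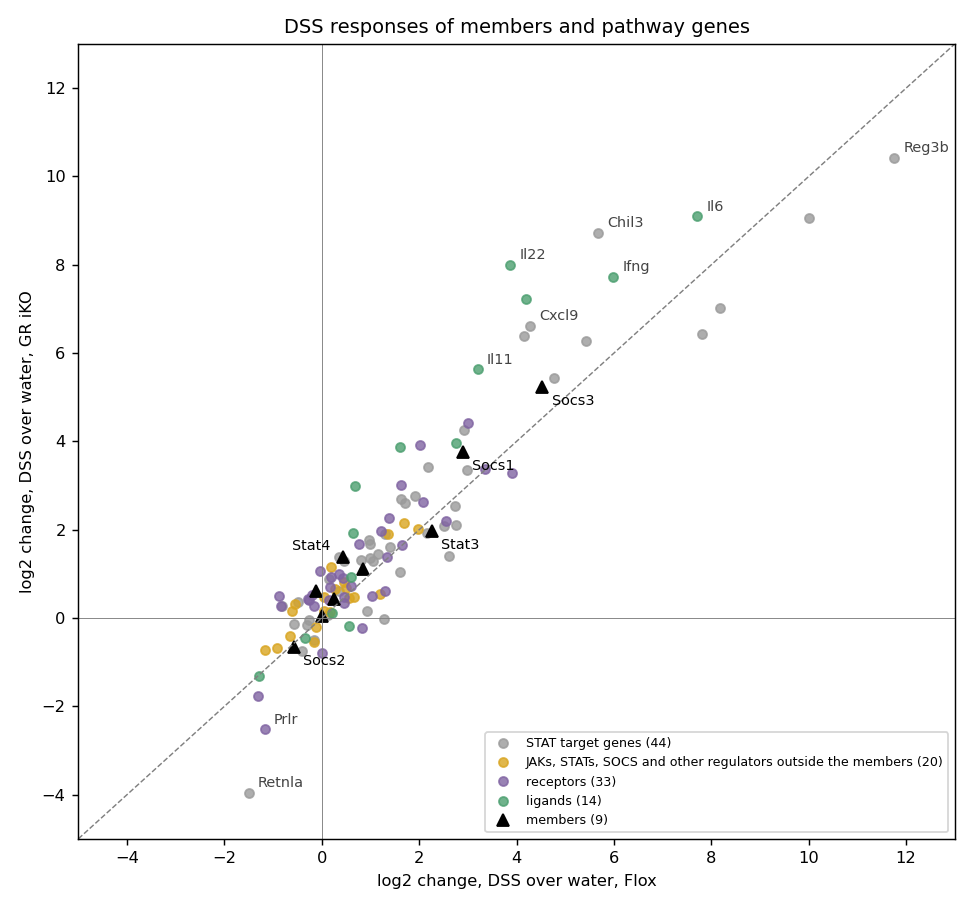
Log2 change on DSS over water in Flox (horizontal) and GR iKO (vertical) for the 9 genes and 111 pathway genes, with the dashed line marking equal changes. Of 14 ligands, 10 lie above the line, among them Il11 (3.20 and 5.64), the one gene called for the interaction, while Reg3b lies below it; scaled to spike-in transcripts, the median of all probes moves to −2.44 and −0.98, and the smaller rises turn negative. For genes that include Csf2, Csf3, Fgg, Ifng, Il10, Il18rap, Il22, Il2ra and Il6, the fitted values drawn rest on water signals that were on no array of 1 or both genotypes well above background.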

How the data were processed

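RNA of 14 colon samples was hybridised to Agilent 1-colour arrays of 45018 spots. The intensity values deposited by the authors are scanner output of Agilent Feature Extraction (12.0.0.7 per the file headers), background-subtracted within each array and not normalised between arrays. The authors also deposited a table of log2 values of the same arrays, whose quartiles are equal in every array. Its normalisation is not given in the sources used here (the processing notes name Partek 6.6), and it was used only as an alternative.

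For the main values, 1639 control spots and spots marked non-uniform or outlying were left out, log2 of the processed signal was taken minus the 75th percentile of the array, and spots of a probe were averaged. Probes well above background on at least 3 of 14 arrays were tested (29523 of 41174). No probe was saturated. The number of arrays limits the precision. Of 29245 probes with a RefSeq accession, 28223 matched a symbol, and the brightest tested probe stood for a gene. A linear model with 4 group means over all 14 arrays was fitted in limma 3.58.1 (R 4.3.3), with two-sided moderated tests, Benjamini-Hochberg adjustment within each of 5 comparisons and calls at an adjusted p under 0.05. Samples were grouped by the labels. The members and gene lists were chosen with earlier results of these data known. The text gives values for all members and, from each pathway list and comparison, a choice among the at most 4 called genes with the largest changes. Further such genes are not described, and some genes are not reported here. The limma fit of DSS against water in Flox was tested on simulated data, with the same spread for water and DSS arrays, unlike in the real data.

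The alternatives were quantile normalisation, spike-in scaling (8 transcripts), normexp correction (offset 50), the log2 table, looser and stricter filters, slide or replicate number as a block, a fit on the arrays compared, separate weights by treatment, array quality weights, an intensity trend, the mean of a gene's probes, and each array left out. Normexp used the median spot and local background intensity. The 18 pairs of samples that share a number had correlations of their deviations from the group means of −0.227 to 0.310, and 9 were above 0.1, so the numbers were not taken to pair samples. Each of 4 slides was 1 scan, and position on the slide went with the group, so these cannot be told apart. The array grid was made for mm9, and no probe coordinates were used.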

Additional observations from a re-analysis of the deposited data

Results flagged for a closer look

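On both Jak2 probes every Flox DSS array lay below the mean of the Flox water arrays and every GR iKO DSS array above that of the GR iKO water arrays. Neither Flox change was called, and that of A_52_P309376 was 0.40 under normexp correction and −0.59 (adjusted p 0.0201) in the deposited log2 table. The responses differed by 0.73 for A_51_P483231 (adjusted p 0.0841) and by 0.77 for A_52_P309376 (adjusted p 0.164), neither past the test. On the water arrays of GR iKO, A_52_P309376 had 1 array far from the others, with a gap of 0.916 of the group's range. Of 28 groups of 4 arrays examined for such gaps, chance gives about 1 in 20. The response of Il11 was larger in GR iKO than in Flox by 2.43 (SE 0.29, adjusted p 0.033).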

How the results depend on the processing

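Spike-in scaling moved the median of all probes to −2.44 for DSS in Flox and −0.98 for DSS in GR iKO, to 1.25 between genotypes on DSS and to 1.43 for the interaction. The distance of each member from the median is the same by construction. For DSS in Flox it turned Cish (−2.35), Jak3 (−1.51, −1.35 and −1.37 for its 3 probes), Stat3 (−0.0925), Stat4 (−1.93), Stat6 (−2.11, −1.76 and −2.22), Stat2 (−0.39), Socs5 (−1.17), Ptpn1 (−0.997), Il4ra (−0.27), Ifnar2 (−0.71), Il12rb1 (−0.98), Il5ra (−0.34), Csf2rb (−0.74) and Bcl6 (−0.20). For DSS in GR iKO it turned Cish (−0.90), Jak2 (−0.35), Stat6 (−0.52, −0.39 and −0.50), Socs7 (−0.30) and Socs5 (−0.42). It ended, without a turn of sign, the call of Socs1 for DSS in Flox (0.55). For DSS in GR iKO it did so for Jak3 (0.16, 0.09 and 0.51 for its 3 probes) and Stat4 (0.42). Between genotypes on DSS it turned Socs2 (1.11), Stat3 (0.95), the Stat6 probe A_51_P452382 (1.201), Il11ra1 (0.39), Ghr (0.16), Igf1 (0.33) and Mgl2 (0.18), and for the interaction Socs2 (1.31), Stat3 (1.11) and the same Stat6 probe (1.37). Normexp correction turned the second Jak2 probe between genotypes on DSS (−0.036) and Socs4 in Flox (0.0295). The causes were not tested.

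With spike-in scaling, 5 members were called for DSS in GR iKO, 9 between genotypes on DSS and 9 for the interaction, and 54, 84 and 79 pathway genes, where 57.5%, 73.9% and 63.4% of all probes were. Between genotypes on DSS, 1 member was called with no filter on dim probes (6.38% of all probes), with slide as a block, with weights by treatment and with array quality weights, and 0 in the fit on the arrays compared. Pathway genes called there numbered 15 with slide as a block, 0 in the fit on the arrays compared, 6 with weights by treatment and 20 with weights by array quality, beside 5.46%, 0%, 2.65% and 11.8% of all probes. For the interaction they numbered 2 with quantile normalisation, 3 with the deposited log2 table, 0 with no filter, 2 with the stricter filter, 0 with slide as a block, 0 with weights by treatment, 12 with weights by array quality, 3 with an intensity trend and 4 with the mean of a gene's probes. The shares of all probes called were, in that order, 0.471%, 0.481%, 0%, 0.443%, 0%, 0%, 6.99%, 0.738% and, over genes, 0.521%.

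With the replicate block, 5 members were called for DSS in Flox, 7 for DSS in GR iKO (without Stat6, adjusted p 0.0719), 0 on water, 1 between genotypes on DSS (without Socs3, adjusted p 0.0869) and 0 for the interaction, and the pathway genes called numbered 70, 86, 0, 23 and 0, beside 51.6%, 42.7%, 0.0102%, 7.57% and 0.00339% of all probes. The replicate numbers share no stated source, so this block is not a pairing.

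With each array left out in turn, 4 to 5 members were called for DSS in Flox, 6 to 8 for DSS in GR iKO, 0 on water, 1 to 2 between genotypes on DSS and 0 to 1 for the interaction. Pathway genes called ranged from 64 to 73, 81 to 89, 0 to 0, 11 to 42 and 0 to 17, and the share of all probes from 44.2% to 56.3%, 38.5% to 47.2%, 0.00339% to 0.0135%, 3.65% to 20.5% and 0% to 7.52%. No alternative called a member between genotypes on water, and the DSS call of Socs3 was made in all 27 alternatives in both genotypes. The 3 arrays per DSS group, their larger spread and signals near background for dim probes limit what these comparisons can detect.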
